A study of Rattus norvegicus with 6 samples.

Results

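Histone genes were followed in rat C6 glioma cells, a line derived from a chemically induced rat brain tumour, after 24 h with FSK (forskolin, which activates adenylyl cyclase and so raises cAMP) or with DMSO, its vehicle. There were 3 FSK libraries and 3 DMSO libraries of bulk RNA from this 1 cell line, and nothing in the labels says that replicates were separate cultures, so a p-value speaks for the spread among these libraries alone, which may be technical. The genes were taken by symbol: rows whose name starts with Hist1h to Hist4h, H1f, H2af or H3f and that hold at least 1 count in any of the 6 libraries. Of 50 rows with such a name, 44 had a count, among 32623 genes in the table and 17832 genes with a count. The members were chosen by name and by detection, with earlier results of these data known. Within the rule, the counts served only to decide whether a gene was detected. The 44 genes carry 42 distinct symbols, because Hist1h2an and Hist1h3b each stand on a pair of rows, and they fall into 34 replication-dependent genes (Hist symbols) and 10 variant genes (H1f, H2af and H3f symbols). The 6 rows at 0 in every library were Hist1h1a, Hist1h2ba, Hist1h2ao, H1foo, H1fnt and H2afb3.

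Histones package DNA into nucleosomes, each built from H2A, H2B, H3 and H4, with the linker histone H1 bound where DNA enters and leaves. Replication-dependent histone genes lie in clusters, mostly lack introns, and are transcribed mainly in S phase into mRNAs that end in a stem-loop bound by SLBP in place of a poly(A) tail. Most variant genes lie outside the large clusters, are made throughout the cell cycle and give ordinary polyadenylated mRNAs, although the H2A.X gene is known to give a stem-loop form as well, and they encode forms that replace the canonical histones at particular sites. Some replication-dependent genes are known in human cells to give polyadenylated forms too, often when cells leave the cycle or differentiate.

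The windows matched by name to 5 histone genes that changed by at least 1.5-fold are shown, those among the 7 such genes that have a RefSeq promoter here. The name Hist2h2aa3 is a RefSeq synonym of both Hist2h2aa2 and H2ac18, and its window is that of H2ac18, since the first entry bears the name of the other gene. Each is the 250 bases before the annotated start, 5′ to 3′ on the gene's own strand, from RefSeq on GRCr8. Capitals mark CCAAT (or ATTGG, the same motif on the other strand), TATAAA (or TTTATA) and ATTTGCAT (or ATGCAAAT). The windows lie at chr17:47392350-47392599 (minus strand, Hist1h2bcl1, named Hist1h2bc in RefSeq), chr2:186490765-186491014 (minus, Hist2h2aa2), chr2:186497021-186497270 (plus, Hist2h2aa3, RefSeq H2ac18), chr4:171406672-171406921 (plus, H2afj, RefSeq H2aj) and chr17:47181941-47182190 (minus, Hist1h2bk, RefSeq H2bc12).
Hist1h2bcl1: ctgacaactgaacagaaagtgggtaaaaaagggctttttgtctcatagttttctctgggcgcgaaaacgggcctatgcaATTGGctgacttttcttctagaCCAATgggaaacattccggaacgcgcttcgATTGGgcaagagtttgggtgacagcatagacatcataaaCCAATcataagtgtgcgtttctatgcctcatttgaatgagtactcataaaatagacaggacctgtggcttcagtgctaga
Hist2h2aa2: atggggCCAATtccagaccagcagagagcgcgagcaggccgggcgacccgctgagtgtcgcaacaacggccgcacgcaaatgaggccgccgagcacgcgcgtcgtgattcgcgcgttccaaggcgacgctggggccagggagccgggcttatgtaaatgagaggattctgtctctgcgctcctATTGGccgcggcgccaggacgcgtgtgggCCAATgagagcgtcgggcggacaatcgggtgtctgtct
Hist2h2aa3: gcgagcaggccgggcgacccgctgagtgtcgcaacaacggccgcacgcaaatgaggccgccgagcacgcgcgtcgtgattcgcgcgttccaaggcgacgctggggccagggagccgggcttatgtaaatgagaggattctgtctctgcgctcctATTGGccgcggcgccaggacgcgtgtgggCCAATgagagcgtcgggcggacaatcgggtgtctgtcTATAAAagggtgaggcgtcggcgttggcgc
H2afj: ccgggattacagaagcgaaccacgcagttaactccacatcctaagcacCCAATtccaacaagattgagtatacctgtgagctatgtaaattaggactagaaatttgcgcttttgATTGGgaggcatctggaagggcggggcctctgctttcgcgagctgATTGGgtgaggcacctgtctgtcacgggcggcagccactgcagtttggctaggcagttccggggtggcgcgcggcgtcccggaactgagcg
Hist1h2bk: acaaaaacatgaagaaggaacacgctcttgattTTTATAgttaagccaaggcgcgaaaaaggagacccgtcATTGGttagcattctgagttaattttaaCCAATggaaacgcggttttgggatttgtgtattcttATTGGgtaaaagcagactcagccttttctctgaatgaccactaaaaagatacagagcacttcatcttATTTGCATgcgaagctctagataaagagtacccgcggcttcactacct
By name, the first 4 of these belong to genes that were higher after FSK, and the last to the 1 replication-dependent gene that fell. The Hist1h2bcl1 window was reached through a synonym, and its placing is uncertain. On Rnor_6.0 that gene lies between Hist1h1t and Hist1h1e, whose windows start at chr17:41855961 and chr17:41914175 on GRCr8. The window printed for it starts at chr17:47392350, away from both, so it may belong to another gene. Hist2h2aa2 and Hist2h2aa3 shared an identical run of 221 bases, placed 29 bases closer to the annotated start in Hist2h2aa2, and the stretch that holds TATAAA at position -30 in Hist2h2aa3 therefore lay past the end of the Hist2h2aa2 window. Of the 5 windows printed, only that of Hist1h2bk held ATTTGCAT, the octamer known from histone H2B promoters, at position -48.

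Library totals were 72661518 to 78976194 counts with FSK and 72146807 to 79992081 counts with DMSO, and 49.0% of the variance lay on the first principal component. The glial markers, all 8 of them detected, summed to 2118 to 2138 FPKM (the authors' unit, scaled by gene length and library size) in FSK libraries and 1551 to 1598 FPKM in DMSO libraries; 6 rose and 2 fell. Neuronal markers summed to 2.32 to 2.81 FPKM with FSK and 2.40 to 2.92 with DMSO, with Rbfox3 at 0. Microglial markers summed to 0.201 to 0.226 FPKM with FSK and 0 to 0.303 with DMSO. Endothelial markers summed to 0.110 to 0.210 FPKM with FSK and 0.330 to 0.372 with DMSO, with Cdh5 and Cldn5 at 0. All 4 germ cell markers were at 0. The part of these markers in the histone values was not tested. In bulk samples, fewer cells in S phase and less RNA per cell cannot be told apart. How the libraries were selected for mRNA is not given in the sources used here. RNAs made without a poly(A) tail were present at low counts: Rn7sl1 had 59, 43 and 48 counts with FSK and 34, 68 and 28 with DMSO, and Rpph1 had 46, 12 and 12 with FSK and 81, 60 and 38 with DMSO. The part of the library type in the levels of stem-loop histone mRNAs was not tested.

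Variant mRNAs made up most of the histone signal per length in both conditions, and replication-dependent mRNAs took a larger share of it after FSK. The 34 replication-dependent genes summed to 156.5, 141.0 and 158.7 FPKM in FSK libraries, against 87.3, 83.3 and 78.8 FPKM in DMSO libraries. The lowest FSK library was above the highest DMSO library, and the ratio of the group means was 1.83. The 10 variant genes summed to 1315 ± 71.1 FPKM with FSK and 1355 ± 26.9 FPKM with DMSO (SD, n = 3 each), and their groups overlapped. Replication-dependent genes thus held 10.4% ± 0.496 of all histone FPKM after FSK and 5.78% ± 0.276 after DMSO (SD, n = 3 each). These sums are descriptions and were not tested.

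The summed rise lay in a few genes. Hist1h1c, Hist1h2bcl1, Hist2h2aa2 and Hist2h2aa3, grouped here after their values were seen, summed to 132.2 ± 9.0 FPKM in FSK libraries and 59.8 ± 2.61 FPKM in DMSO libraries (SD, n = 3 each). The other 30 replication-dependent genes together summed to 19.9 ± 0.915 FPKM with FSK and 23.3 ± 2.08 FPKM with DMSO. In CPM (counts scaled to library size with TMM, not to gene length) they summed to 9.63 ± 0.295 with FSK and 10.3 ± 0.941 with DMSO, overlapping. Of these 30, Hist1h2bk alone was at 1.64 ± 0.848 FPKM with FSK and 4.80 ± 0.876 FPKM with DMSO, while Hist1h4b rose. Genes that rose were taken out to make this remainder, so it describes these genes only. By family, linker H1 summed to 74.3 ± 2.50 FPKM with FSK and 44.1 ± 1.28 FPKM with DMSO, and H2B to 43.5 ± 3.79 FPKM with FSK and 18.3 ± 2.66 FPKM with DMSO (SD, n = 3 each). H2A summed to 28.3 ± 5.32 FPKM with FSK and 15.7 ± 3.51 FPKM with DMSO. The scarcer H3 summed to 3.29 ± 0.616 FPKM with FSK and 4.19 ± 0.879 FPKM with DMSO, and H4 to 2.70 ± 0.163 FPKM with FSK and 0.820 ± 0.421 FPKM with DMSO. The FSK and DMSO libraries did not overlap for replication-dependent H1, H2A, H2B and H4, and overlapped for H3. Among the variants, H2A summed to 467.5 ± 24.5 FPKM with FSK and 513.3 ± 27.1 FPKM with DMSO, without overlap (SD, n = 3 each). The direction depends on the unit: in CPM the same genes summed to 482.7 ± 20.6 with FSK and 459.8 ± 27.8 with DMSO, overlapping. The parts of length scaling and of TMM in this difference were not tested. Variant H3 summed to 820.0 ± 65.3 FPKM with FSK and 813.8 ± 25.0 FPKM with DMSO, and variant H1 to 27.5 ± 3.26 FPKM with FSK and 28.1 ± 4.69 FPKM with DMSO, both overlapping.

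**Figure D1:**
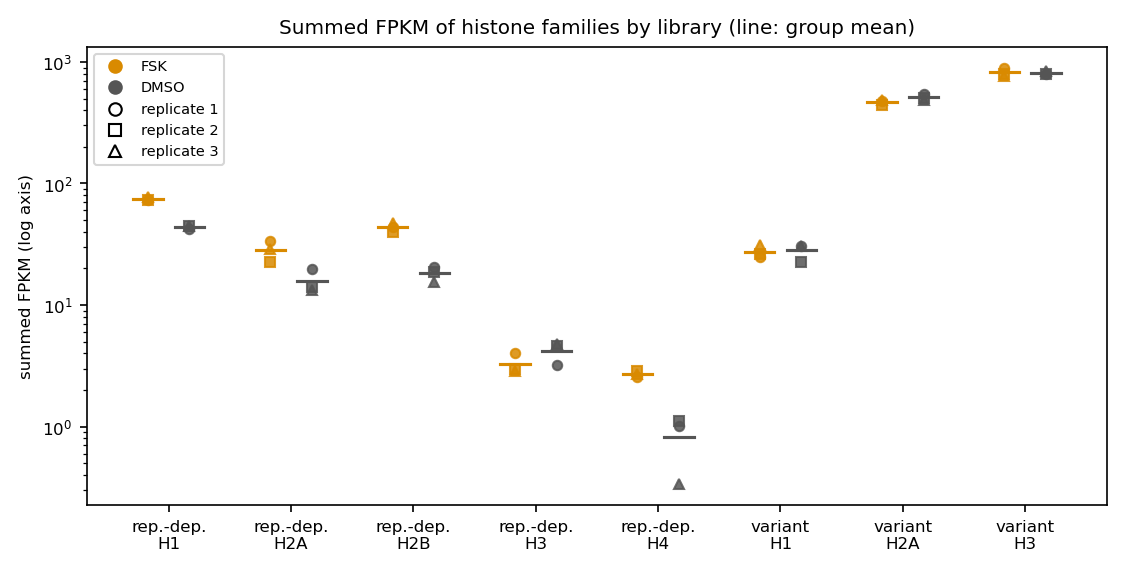
Summed FPKM (log axis) of the replication-dependent (rep.-dep.) and variant histone families in each library, FSK in orange left of DMSO in grey, with symbols for replicates and a line at the group mean. Replication-dependent H1, H2A, H2B and H4 are higher in every FSK library than in any DMSO library, variant H1 and H3 overlap between the groups, and variant H2A is lower in every FSK library on this scale, which summed CPM does not show.

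Single genes were tested with edgeR's quasi-likelihood test across the whole table, with Benjamini-Hochberg adjustment over the 14166 genes that passed a filter on low counts, and are called at an adjusted p of 0.05. Of the histone genes, 37 of 44 passed the filter. The other 7, all replication-dependent and none with more than 39 counts in a library, were Hist1h1t, Hist1h2aa, 1 of the Hist1h2an rows, Hist2h2ab, Hist1h2bl, 1 of the Hist1h3b rows and Hist1h4m. Among the 27 replication-dependent genes tested, 5 rose, 1 fell and 21 were not called. Across all genes tested, 39.4% were called, 19.6% higher and 19.8% lower with FSK, so the 18.5% that rose is near the background and the 3.70% that fell is below it. Their log2 fold changes ran from -1.56 to 3.15 with a median of 0.48, beside -0.01 over all genes tested. Over all 34 genes with no filter the median was 0.25, and without 1 library it lay between 0.24 (without FSK replicate 1) and 0.36 (without DMSO replicate 2). A gene that passes a filter through its higher group had to differ, so these medians describe the genes only. In that unfiltered test, which called 29.2% of 17832 genes (14.5% higher and 14.7% lower), the same 11 histone genes were called in the same direction. The 10 variant genes all passed the filter; 3 rose (30.0%), 2 fell (20.0%) and 5 were not called, with log2 fold changes from -0.37 to 1.26 and a median of 0.07.

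At a change of at least 1.5-fold, 5 replication-dependent genes rose (18.5%) and 1 fell (3.70%), and of the variant genes 1 rose (10.0%) and none fell, where 7.23% of all genes tested rose and 9.94% fell. The filter bears on these shares as on the medians. The libraries of both groups did not overlap, with FSK higher, in 7 replication-dependent (25.9%) and 4 variant genes (40.0%), and with FSK lower in 3 (11.1%) and 2 (20.0%), where 26.6% of all genes tested were higher and 26.4% lower without overlap (53% in all). Counts were low for most replication-dependent genes: 30 of 34 had a mean under 100 counts a library, and 11 of the 27 tested had a library under 10 counts. The SE of their log2 fold changes reached 1.16 (Hist1h2ak), which limits the differences detectable at this depth.

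**Figure D2:**
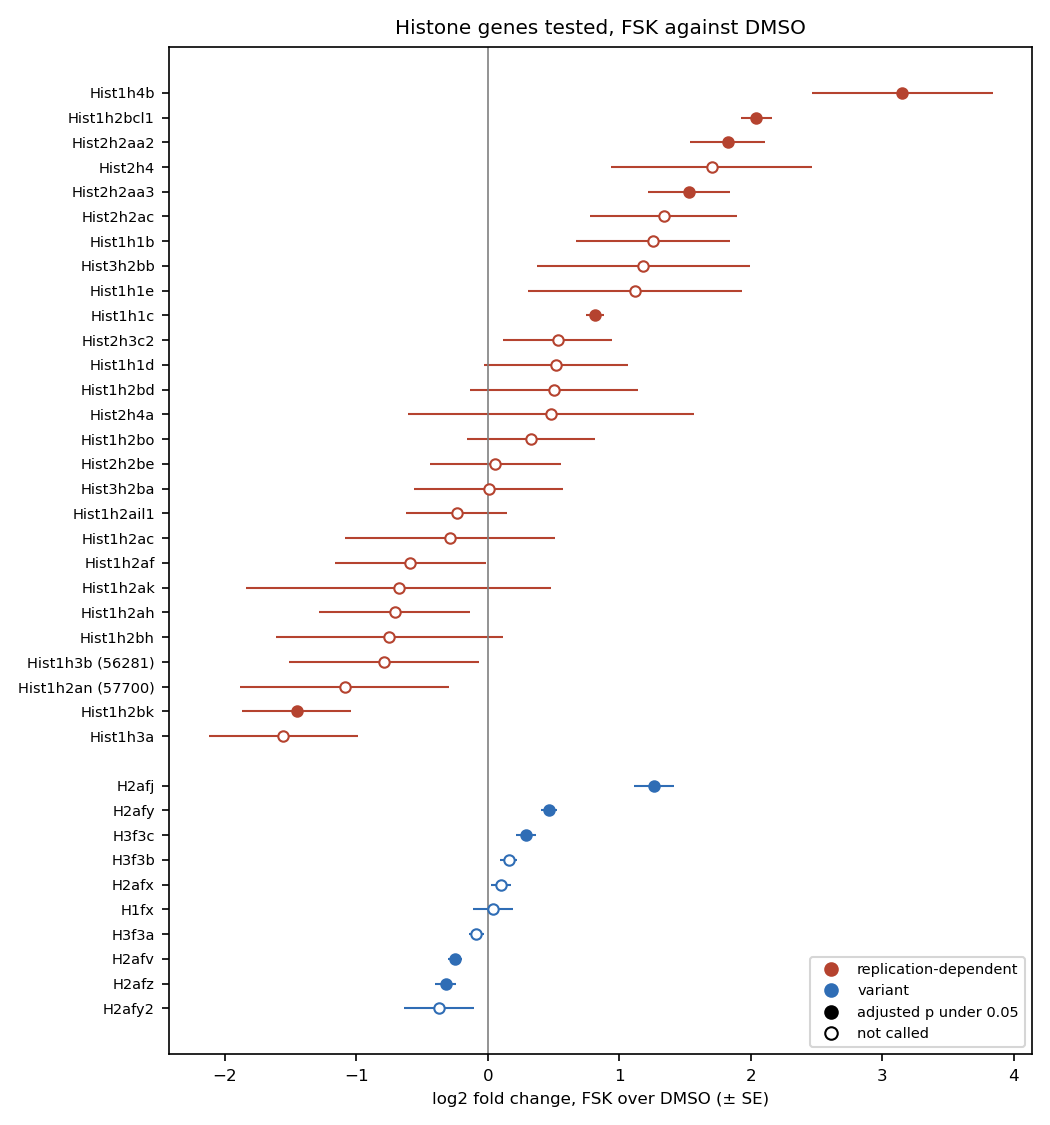
Log2 fold change (FSK over DMSO, ± SE) of the 37 histone genes tested, replication-dependent in red above and variant in blue below; filled points have an adjusted p under 0.05, and bracketed digits end the identifier of a gene whose symbol stands on more than 1 row. Replication-dependent genes spread from -1.56 to 3.15 with wide errors, and variant genes from -0.37 to 1.26 with narrow ones.

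Hist1h1c encodes a linker H1 subtype that is common in somatic cells, and it lies at chr17:43639749-43640387 (Rnor_6.0, minus strand; all gene positions below are on this build). It had 46.9, 47.1 and 51.5 CPM (counts scaled to library size with TMM) in FSK libraries, against 27.2, 28.1 and 27.3 CPM in DMSO libraries. All FSK libraries were above all DMSO libraries, and the log2 fold change was 0.82 ± 0.07 (SE, adjusted p = 6.92e-05, edgeR). Per length it was the highest replication-dependent gene, at 72.2 ± 3.03 FPKM with FSK and 43.0 ± 1.06 FPKM with DMSO (SD, n = 3 each). The other linker genes were far lower: Hist1h1b, Hist1h1d and Hist1h1e each stayed under 1 FPKM in both group means, with log2 fold changes of 1.26 ± 0.59, 0.52 ± 0.55 and 1.12 ± 0.81 that did not pass the test (adjusted p = 0.127, 0.490 and 0.313, edgeR). The testis linker gene Hist1h1t had 10, 8 and 0 counts with FSK and 0 in every DMSO library, and was not tested.

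In H2A, the near-identical genes Hist2h2aa2 (chr2:198381798-198382190, minus strand) and Hist2h2aa3 (chr2:198388809-198389201, plus strand), whose upstream windows are printed above, were higher after FSK. Hist2h2aa2 had 6.46, 4.07 and 5.04 CPM with FSK and 1.83, 1.60 and 0.970 CPM with DMSO, a log2 fold change of 1.82 ± 0.29 (adjusted p = 0.00167, edgeR). Hist2h2aa3 had 4.46, 3.14 and 4.36 CPM with FSK and 1.77, 1.54 and 0.824 CPM with DMSO, a log2 fold change of 1.53 ± 0.31 (adjusted p = 0.00568, edgeR). The groups did not overlap in either gene, and in both groups the libraries stood in like order in the pair. Because copies this alike can share reads, the division between them is uncertain; summed, they had 9.18 ± 1.86 CPM with FSK and 2.85 ± 0.940 CPM with DMSO (SD, n = 3 each), a ratio of 3.22. Their neighbour Hist2h2ac had 28, 25 and 31 counts with FSK and 11, 10 and 14 with DMSO, without overlap, but its log2 fold change of 1.34 ± 0.56 did not pass (adjusted p = 0.0907, edgeR). It passed with limma on log2(FPKM + 1) (adjusted p = 0.00197) and on log2(FPKM + 0.1) (0.00458).

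No other H2A gene was called by edgeR. Hist1h2af had 0.943, 0.268 and 0.512 CPM with FSK and 1.26, 0.441 and 0.897 CPM with DMSO, and Hist1h2ail1 had 0.734, 1.13 and 0.906 CPM with FSK and 1.44, 0.649 and 1.18 CPM with DMSO. Both overlapped between groups, with log2 fold changes of -0.59 ± 0.58 and -0.24 ± 0.39 (adjusted p = 0.457 and 0.661, edgeR). Hist1h2ah was lower without overlap, at 16, 9 and 20 counts with FSK and 22, 29 and 27 with DMSO, and did not pass (log2 fold change -0.71 ± 0.57, adjusted p = 0.365, edgeR). It passed with limma on log2(FPKM + 1) (adjusted p = 0.0287) and on log2(FPKM + 0.1) (0.0488). Hist1h2ac, Hist1h2ak and the tested row of Hist1h2an (ENSRNOG00000057700) had log2 fold changes of -0.29, -0.68 and -1.09, none past the test. That row of Hist1h2an is annotated as a pseudogene, and it counts among the 34 replication-dependent genes and the 27 tested. The testis gene Hist1h2aa had 2, 0 and 0 counts with FSK and 0, 0 and 2 with DMSO.

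In H2B, 1 gene rose and 1 fell. Hist1h2bcl1 (chr17:43679925-43689311, minus strand) had 39.0, 33.9 and 40.0 CPM in FSK libraries, against 10.4, 8.84 and 8.19 CPM in DMSO libraries. It was the most clearly separated histone gene, with a log2 fold change of 2.04 ± 0.12 (adjusted p = 1.06e-05, edgeR) and 37.7 ± 3.18 FPKM with FSK and 9.60 ± 1.03 FPKM with DMSO (SD, n = 3 each). Its span overlaps AC130391 on the other strand, which had 403, 285 and 239 counts with FSK and 25, 48 and 21 with DMSO (log2 fold change 3.38 ± 0.37, adjusted p = 0.000266, edgeR). The strand rule of the counting is not given in the sources used here, so reads of the pair cannot be told apart.

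Hist1h2bk (chr17:44527421-44527801, minus strand), one of the H2B genes reported with polyadenylated forms in human cells, had 0.367, 0.591 and 1.05 CPM with FSK and 2.02, 2.07 and 1.43 CPM with DMSO. The groups did not overlap, and the log2 fold change was -1.46 ± 0.42 (adjusted p = 0.0248, edgeR). The call was lost without FSK replicate 1 (adjusted p = 0.0527), FSK replicate 2 (0.0793), DMSO replicate 1 (0.0627) or DMSO replicate 2 (0.0774), and the range over all alternatives was 0.00468 to 0.0793. Among the other H2B genes, Hist3h2ba had 0.485, 0.774 and 1.04 CPM with FSK and 0.907, 1.11 and 0.267 CPM with DMSO, and Hist2h2be had 0.341, 0.352 and 0.631 CPM with FSK and 0.371, 0.392 and 0.509 CPM with DMSO. Both overlapped, with log2 fold changes of 0.01 ± 0.57 and 0.06 ± 0.50 (adjusted p = 0.994 and 0.941, edgeR). Hist1h2bd, Hist1h2bh, Hist1h2bo and Hist3h2bb were each under 1 FPKM in both group means and were not called. Hist1h2bo spans Hist1h2an, Hist1h3b and Hist1h1b, so its reads are uncertain.

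None of the 3 H3 genes tested was called by edgeR, with 1 at an unadjusted p under 0.05 and 1 called by DESeq2, in both cases Hist1h3a. Hist1h3a had 21, 10 and 16 counts with FSK and 42, 31 and 74 with DMSO, lower in every FSK library, with a log2 fold change of -1.56 ± 0.57 (adjusted p = 0.0604, edgeR). Its adjusted p was 0.0466 with DESeq2, it passed in 3 other alternatives too, and the adjusted p ranged from 0.0159 to 0.225. Hist2h3c2 had 1.17, 1.11 and 0.657 CPM with FSK and 0.467, 0.931 and 0.630 CPM with DMSO, overlapping, with a log2 fold change of 0.53 ± 0.41 (adjusted p = 0.348, edgeR). The tested row of Hist1h3b (ENSRNOG00000056281) had 18, 4 and 30 counts with FSK and 22, 41 and 32 with DMSO and was not called.

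H4 mRNAs were the scarcest family per length. Hist1h4b (chr4:170763605-170763916, minus strand) had 39, 23 and 34 counts with FSK and 4, 5 and 2 with DMSO. It was the only histone gene tested that stayed under 10 counts in every DMSO library, so it passed the filter through its FSK counts, and its log2 fold change was 3.15 ± 0.69 (adjusted p = 0.00784, edgeR) and 1.0 with limma on log2(FPKM + 1). Hist2h4 had 13, 44 and 23 counts with FSK and 10, 12 and 4 with DMSO, without overlap, and did not pass (log2 fold change 1.70 ± 0.77, adjusted p = 0.114, edgeR). Hist2h4a overlapped between groups (0.48 ± 1.09, adjusted p = 0.761, edgeR).

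**Figure D3:**
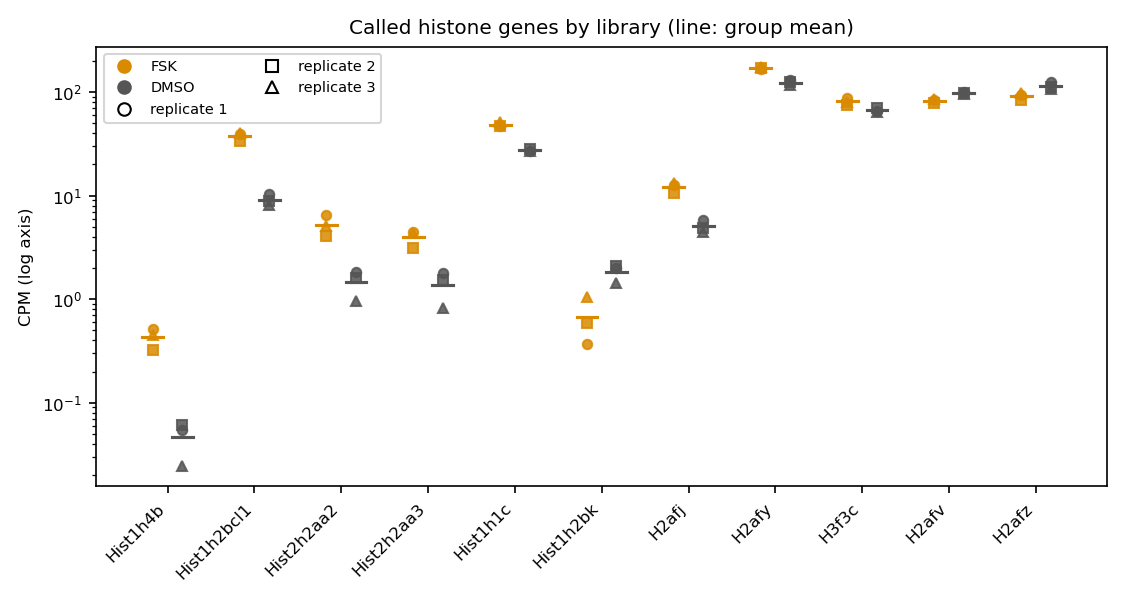
CPM (log axis) of the 11 called histone genes in each library, FSK in orange left of DMSO in grey, with symbols for replicates and a line at the group mean. None of the 11 overlaps between the groups, and the DMSO libraries of Hist1h4b lie lowest, under 0.1 CPM.

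Among the variants, both H2A.Z genes fell, and H2A.J, 1 of the 2 macroH2A genes and H3f3c rose. H2A.Z is known for marking promoters and for being exchanged into nucleosomes outside S phase. H2afz (chr2:243105674-243106956, plus strand), 1 of its 2 genes, had 93.5, 84.2 and 97.8 CPM with FSK and 124.3, 112.1 and 108.3 CPM with DMSO, a log2 fold change of -0.32 ± 0.08 (adjusted p = 0.0118, edgeR). It lies within Dnajb14 on the same strand, which was also lower (log2 fold change -0.63 ± 0.16, adjusted p = 0.0147, edgeR) at 363, 327 and 383 counts with FSK and 451, 713 and 603 with DMSO. H2afv, the other H2A.Z gene, had 84.4, 78.6 and 85.2 CPM with FSK and 100.3, 98.2 and 96.5 CPM with DMSO, a log2 fold change of -0.25 ± 0.05 (adjusted p = 0.00778, edgeR). All FSK libraries were below all DMSO libraries in both, and both changes were under 1.5-fold.

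H2afj (chr4:170766900-170767382, plus strand) encodes H2A.J, a mammalian variant known for accumulating in senescent fibroblasts and some epithelia. It had 12.6, 10.5 and 13.2 CPM with FSK and 5.83, 4.85 and 4.47 CPM with DMSO, a log2 fold change of 1.26 ± 0.15 (adjusted p = 0.000397, edgeR), and was the 1 variant that rose by more than 1.5-fold. H2afy, which encodes macroH2A, the variant with a large added domain known from the inactive X chromosome, had 166.8, 169.4 and 175.0 CPM with FSK and 129.6, 124.9 and 115.9 CPM with DMSO (log2 fold change 0.46 ± 0.06, adjusted p = 0.000515, edgeR). Neither gene overlapped between groups. The second macroH2A gene, H2afy2, was scarce, at 2.14, 1.48 and 1.21 CPM with FSK and 2.10, 2.22 and 1.93 CPM with DMSO, and its log2 fold change of -0.37 ± 0.27 did not pass (adjusted p = 0.307, edgeR). H2afx encodes H2A.X, phosphorylated at DNA breaks; it had 121.2, 119.0 and 131.9 CPM with FSK and 125.6, 117.3 and 105.1 CPM with DMSO, overlapping, with a log2 fold change of 0.10 ± 0.08 (adjusted p = 0.357, edgeR).

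The H3.3 genes encode the H3 form deposited outside replication. H3f3a (ENSRNOG00000006532) had 529.5, 461.4 and 483.8 CPM with FSK and 514.9, 518.3 and 535.3 CPM with DMSO, and its log2 fold change of -0.09 ± 0.06 did not pass (adjusted p = 0.263, edgeR). H3f3b (ENSRNOG00000003220) had 213.8, 195.6 and 184.8 CPM with FSK and 180.0, 171.1 and 181.4 CPM with DMSO, higher without overlap, but at 0.16 ± 0.06 on the log2 scale did not pass (adjusted p = 0.0832, edgeR; 0.0463 with DESeq2). H3f3c had 88.7, 75.0 and 80.1 CPM with FSK and 65.8, 70.2 and 63.7 CPM with DMSO, a log2 fold change of 0.29 ± 0.07 (adjusted p = 0.0164, edgeR), and lost the call without DMSO replicate 1 (0.0501) or DMSO replicate 3 (0.0664); over all alternatives its adjusted p ranged from 0.00181 to 0.0664. Copies of H3.3 can share reads, so the division among the 3 is uncertain. The table sets the symbols H3f3a and H3f3b on chromosomes 10 and 13, and RefSeq sets them on 13 and 10, so the identifiers above, not the symbols, name these genes. H1fx, a linker variant, had 15.0, 16.0 and 19.2 CPM with FSK and 18.2, 13.2 and 17.6 CPM with DMSO, overlapping (log2 fold change 0.04 ± 0.15, adjusted p = 0.869, edgeR).

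Per length, the highest histone gene in both groups was the table's H3f3b (ENSRNOG00000003220), at 459.2 ± 39.3 FPKM with FSK and 431.4 ± 17.1 FPKM with DMSO. Then came the table's H3f3a (ENSRNOG00000006532) at 283.0 ± 22.1 FPKM with FSK and 315.6 ± 11.7 FPKM with DMSO. H2afz followed at 227.7 ± 16.3 FPKM with FSK and 298.6 ± 17.5 FPKM with DMSO (SD, n = 3 each). H3f3a and H2afz were within 1 SD of each other with DMSO but not with FSK. With FSK, H2afx at 88.8 ± 4.02 FPKM, H2afy at 84.8 ± 1.06, H3f3c at 77.8 ± 7.19 and Hist1h1c followed, and neighbours in that order lay within 1 SD of each other. With DMSO the order was H2afx at 87.0 ± 6.35 FPKM, H3f3c at 66.8 ± 2.98, H2afy at 64.4 ± 2.61 and H2afv at 51.8 ± 0.260, with H3f3c and H2afy within 1 SD. H2afv was at 41.5 ± 1.73 FPKM with FSK. H2afj was at 23.9 ± 2.71 FPKM with FSK and 10.4 ± 1.29 FPKM with DMSO. Hist2h2aa2 was at 12.6 ± 3.0 FPKM with FSK and 3.70 ± 1.06 FPKM with DMSO, and Hist2h2aa3 at 9.64 ± 1.78 FPKM with FSK and 3.48 ± 1.20 FPKM with DMSO. H1fx was at 27.5 ± 3.26 FPKM with FSK and 28.1 ± 4.69 FPKM with DMSO. Beside these genes and Hist1h2bcl1, every histone gene was under 5 FPKM in both group means. This order leans on the annotated lengths: counts and FPKM imply 421 bases for H3f3b and 394 for H2afz but 1696 for H3f3a. Of the 32 replication-dependent genes with a span under 1000 bases, 28 had a span that is a multiple of 3, which is coding length without UTRs.

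By position, 25 of the 34 replication-dependent genes lay on chromosome 17, 6 on chromosome 2, 2 on chromosome 10 and 1 on chromosome 4. On chromosome 17, 2 rose and 1 fell. On chromosome 2, the called pair Hist2h2aa2 and Hist2h2aa3 lay 6618 bases apart, Hist2h2ac and Hist2h4 were higher without overlap but not called, Hist2h2be lay 319 bases from Hist2h2ac and differed by 0.06 on the log2 scale, and Hist2h2ab was not tested. Hist1h4b and H2afj, which both rose, lay 2983 bases apart on chromosome 4. RefSeq sets Hist1h4b on another chromosome, and the table sets Hist2h3c2 on chromosome 17 where RefSeq has 2, so the placing of these genes rests on the table's build alone.

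**Figure D4:**
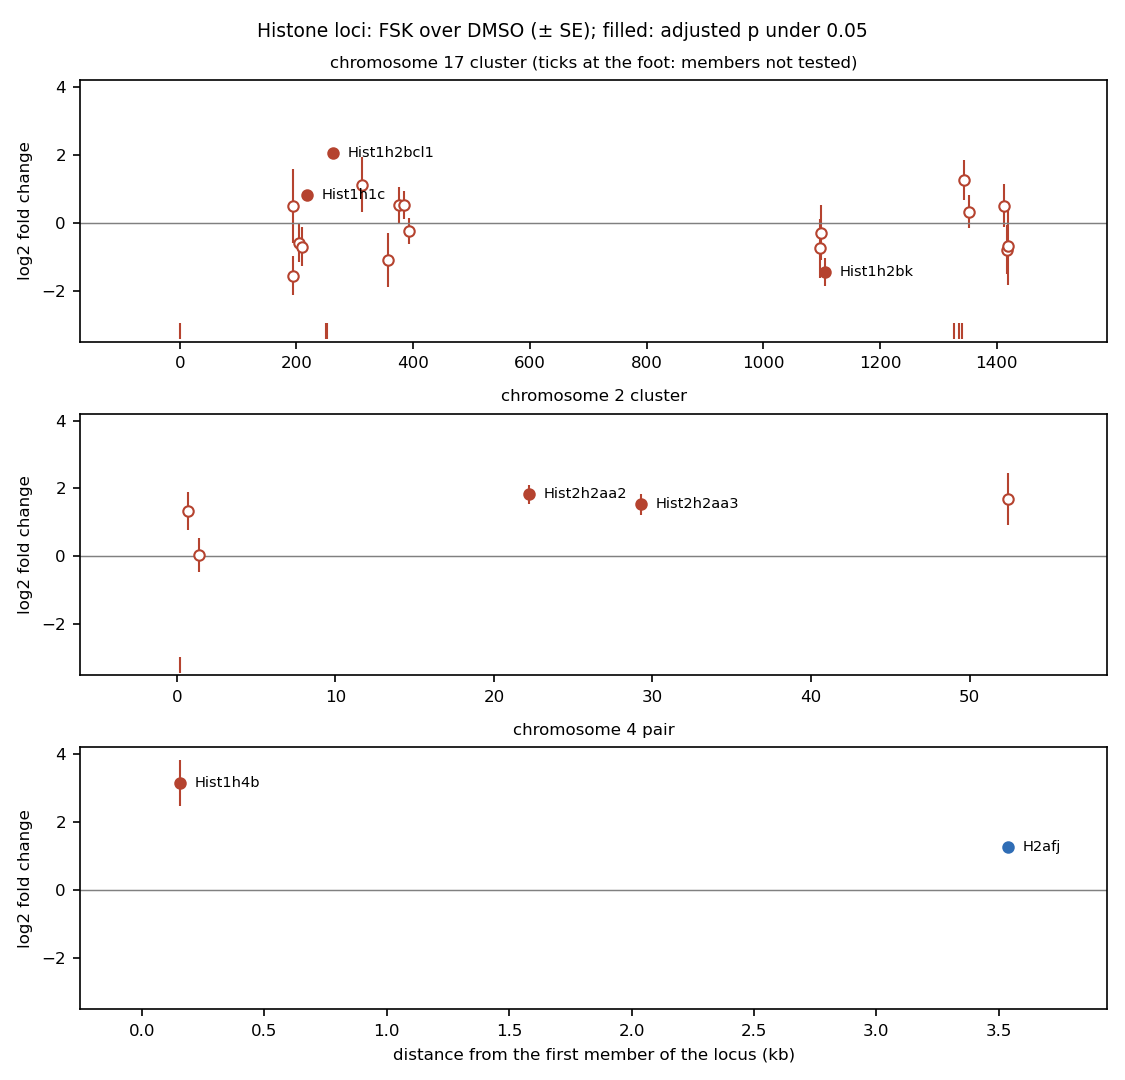
Log2 fold change (FSK over DMSO, ± SE) of histone genes against distance in kb from the first gene of the locus, for the chromosome 17 cluster, the chromosome 2 cluster and the chromosome 4 pair; filled points have an adjusted p under 0.05, and ticks at the foot mark genes not tested. Called genes stand among uncalled neighbours on chromosome 17, and the chromosome 2 points lie at or above 0.

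Motifs were counted in the 250 bases upstream of the 27 histone genes with a RefSeq promoter, on both strands. CCAAT was found in 20 of 21 replication-dependent and 3 of 6 variant windows, beside 34.0% of all 33469 promoters of that length. TATAAA was found in 14 of 21 and 0 of 6, beside 12.9%, and ATTTGCAT in 8 of 21 and 0 of 6, beside 1.56%. The letters TTTATAAA hold TATAAA on both strands and were counted as 1 window, and no motif searched contains another. TGACGTCA, the full cAMP response element, was found in none of the 27, beside 1.59% of all promoters. Copies share sequence, so the windows are not independent, and a match is a description of the letters only. Windows were matched by name and chromosome, and those of Hist1h2bcl1 and Hist1h4m may belong to other genes. On Rnor_6.0 Hist1h4m (chr17:43673294-43673605) lies near Hist1h1t (chr17:43675190-43675934). Its window starts at chr17:47393514 on GRCr8, away from that of Hist1h1t at chr17:41855961. The window of Hist1h4m was the replication-dependent one without CCAAT. Hist1h1c and Hist1h4b had no window here.

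Lists of genes that process histone mRNAs, carry histones or modify them were each read against the shares of 19.6% higher and 19.8% lower. The lists were chosen with earlier results of these data known. A list named for histone mRNA 3′ end processing had 23 tested genes. Among them were also RNA decay genes (Upf1, Dcp2, Xrn1 and Exosc10) and Npat. None rose (1 at an unadjusted p under 0.05 with edgeR, and 1 with DESeq2). Of the 23, 5 fell (21.7%, near the background), and the median log2 fold change was -0.16. Those with the largest falls were Eri1, an exonuclease that trims the histone stem-loop, at 18.4 ± 1.77 CPM with FSK and 31.4 ± 3.97 CPM with DMSO (-0.77 ± 0.12, adjusted p = 0.00149, edgeR), Casp8ap2 (-0.74 ± 0.19, 0.0169), the cleavage factor Cstf2 (-0.54 ± 0.05, 0.000153) and Cpsf2 (-0.24 ± 0.06, 0.0205). The call of Casp8ap2 was lost without FSK replicate 3 (0.0640), DMSO replicate 2 (0.0669) or DMSO replicate 3 (0.0562), and that of Cpsf2 without FSK replicate 3 (0.0742) or DMSO replicate 2 (0.0708); the count that fell was 3 without FSK replicate 3 and 2 without DMSO replicate 2. Slbp itself, named here for its role, had 60.3 ± 1.88 CPM with FSK and 58.4 ± 0.888 CPM with DMSO (0.05 ± 0.05, adjusted p = 0.533, edgeR), and the transcription coactivator Npat was at -0.39 ± 0.17 (0.0996).

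Of 31 histone chaperone and import genes tested, 2 rose (6.45%) and 12 fell (38.7%), with a median of -0.15. Hat1, which acetylates new H4, had 36.2 ± 4.02 CPM with FSK and 60.3 ± 6.48 CPM with DMSO (-0.74 ± 0.10, adjusted p = 0.00102, edgeR). Anp32e, a chaperone that removes H2A.Z, had 109.1 ± 5.24 CPM with FSK and 174.9 ± 19.8 CPM with DMSO (-0.68 ± 0.08, 0.000522). The CENP-A chaperone Hjurp (-0.58 ± 0.10, 0.00317) and the FACT subunit Supt16h (-0.54 ± 0.12, 0.00990) also fell. Both that rose did so by little and lost their calls under some settings: Daxx, a chaperone of H3.3 (0.24 ± 0.06, 0.0146; 0.0665 with limma on log2(FPKM + 1)), and the importin Ipo4 (0.24 ± 0.06, 0.0173; 0.0555 without FSK replicate 2 and 0.0603 without FSK replicate 3). The centromeric H3 variant Cenpa, outside the symbol rule, had 31.6, 33.4 and 32.2 CPM with FSK and 48.2, 51.8 and 45.9 CPM with DMSO, without overlap (-0.59 ± 0.07, 0.000452). It came from a list of 10 further variants, of which 3 were matched, 2 tested and 1 fell; none rose with edgeR or DESeq2, and 0 had an unadjusted p under 0.05 in that direction.

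Most S phase genes fell: of 38 tested, 1 rose, 25 fell and the median log2 fold change was -0.36, beside a background of 19.8% lower. The largest falls were in the polymerase subunit Pola1 (8.54 ± 1.01 CPM with FSK and 18.3 ± 3.03 with DMSO; -1.10 ± 0.15, adjusted p = 0.000832, edgeR), the nucleotide enzymes Tyms (-0.87 ± 0.09, 0.000221) and Tk1 (184.4 ± 3.67 CPM with FSK and 331.1 ± 15.9 with DMSO; -0.84 ± 0.05, 1.38e-05), and the ligase Lig1 (-0.59 ± 0.09, 0.00133). The 1 that rose was the G1/S cyclin Ccne1, at 53.7 ± 2.13 CPM with FSK and 36.4 ± 4.92 CPM with DMSO (0.56 ± 0.10, 0.00314). The replication-dependent sum was thus higher in the same libraries in which most S phase mRNAs were lower. That higher sum lay in 4 genes, grouped after their values were seen. The other 30 replication-dependent genes summed to 19.9 ± 0.915 FPKM with FSK and 23.3 ± 2.08 FPKM with DMSO (SD, n = 3 each). In CPM these 30 genes overlapped between groups, and they are what was left once genes that rose were taken out. The part of the histone sum in the S phase mRNAs, or the reverse, was not tested.

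Of 5 tested symbols on a list reported with polyadenylated forms in human cells, 1 rose (Hist1h1c), 1 fell (Hist1h2bk) and the median was 0.06. Synonyms that reach a histone member were not used in these lists, so the listed Hist1h2bc is not among the 5. RefSeq holds Hist1h2bcl1 as a synonym of that name, and Hist1h2bcl1 rose (2.04 ± 0.12, adjusted p = 1.06e-05, edgeR). The count and median of this list leave it out. Of 7 matched testis histone symbols, 4 were at 0 and 1 was tested, H3f3c. Of 37 histone acetylation and methylation enzymes, 9 rose (24.3%) and 7 fell (18.9%), both near the background, with a median of -0.10. Class IIa deacetylases, known to shuttle between nucleus and cytoplasm under phosphorylation, included the extremes in both directions. Hdac4 had 33.8 ± 3.03 CPM with FSK and 14.0 ± 0.882 CPM with DMSO (1.27 ± 0.10, adjusted p = 4.91e-05, edgeR), whereas Hdac9 had 4, 10 and 0 counts with FSK and 372, 422 and 481 with DMSO (-6.37 ± 0.66, 0.000200), Hdac5 had 65.9 ± 2.64 CPM with FSK and 141.8 ± 8.80 CPM with DMSO (-1.11 ± 0.06, 1.05e-05), and Hdac7 was at -0.67 ± 0.06 (0.000103). The fold change of Hdac9 rests on FSK counts of 10 or fewer. It ran from -7.59 to -0.80 over the alternatives, and the call held in each that tested the gene. The acetyltransferase Kat2a (0.76 ± 0.06, 6.84e-05) and the H3K27 demethylase Kdm6b (0.48 ± 0.09, 0.00381) rose and the Polycomb subunit Suz12 fell (-0.66 ± 0.12, 0.00329). The H4K20 methyltransferase Kmt5a (0.32 ± 0.09, 0.0224) lost its call without FSK replicate 1 (0.0675), FSK replicate 2 (0.0834), DMSO replicate 1 (0.0623), DMSO replicate 2 (0.0762) or DMSO replicate 3 (0.0533).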

How the data were processed

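Each gene of the deposited table has a whole-number count and an FPKM value per library, named so per the file headers. The FPKM values were made by the authors and scale with the gene lengths of their annotation. Per the submitters' processing notes, cutadapt, HISAT2, StringTie, edgeR, DESeq2 and the build Rnor_6.0 were used, without versions or settings. Reads were 150 bases at each end, per the labels' protocols. Strand rule, annotation release and whether a count is a read or a pair: not given in the sources used here.

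The counts were tested in R 4.3.3 with edgeR 4.0.16: default expression filter, TMM, quasi-likelihood fit, FSK against DMSO with no block, and Benjamini-Hochberg adjustment over all genes tested. The default filter uses a minimum of 10 counts, and the fit was tested on simulated data. Standard errors come from the quasi-likelihood F statistic, and CPM uses library totals scaled by TMM. Values per library are given for each gene that passed the filter and averaged at least 1 FPKM in a group or was called, and values are given for up to 4 called genes per direction of each list. The members and lists were chosen with earlier results of these data known. Alternatives were DESeq2 1.42.0, limma 3.58.1 on log2(FPKM + 1) and log2(FPKM + 0.1), other filters and scaling, a robust dispersion, a block and leaving out each library. Replicates differed beyond sampling noise, with a chi-square of 30.4 or more per degree of freedom. RefSeq promoters and gene names on GRCr8 were matched by symbol and then synonym: 36 histone genes matched 1 gene, 33 of them on the same chromosome. Promoters were taken for 27, leaving out, where a synonym named several entries, those that bear another member's symbol. A comparison of the proteins was not run here.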

Additional observations from a re-analysis of the deposited data

How the results depend on the processing

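Under the other settings 5 to 6 replication-dependent genes rose, and no named gene called under either setting changed sign, with 802 values on the same side of the threshold, 27 weaker and 9 stronger. The 1 replication-dependent gene that fell became 2 with DESeq2 or a mean FPKM of at least 1, 3 in both limma fits, 0 with the replicate block, and 0 to 1 without single libraries. Over variant genes, 1 rose and 0 fell at 1.5-fold, a limit chosen after seeing the data, as was the sum of Hist2h2aa2 and Hist2h2aa3. The 3′ processing list had 1 that rose with DESeq2 (0 to 1 without single libraries) and 3 that fell with the block (2 to 6). Chaperones that rose were 0 with the block, 1 in both limma fits and 1 to 2 without single libraries. Enzymes that rose were 5 in both limma fits, and 13 fell with DESeq2. The replication-dependent median log2 fold change, 0.48, was 0.25 with no filter, 0.29 at a mean FPKM of at least 1, 0.15 and 0.32 with limma at pseudocounts of 1 and 0.1, 0.89 with families summed, and 0.24 to 0.36 without single libraries. The variant median, 0.07, was 0.0029 and 0.0028 with limma and -0.00813 to 0.14 without single libraries. The summed replication-dependent log2 ratio of 0.87 (FPKM) and 1.07 (CPM) was 0.99 and 1.34 without Hist1h1c, and the variant FPKM ratio of -0.04 was -0.11 without H3f3b. The cause of these shifts was not tested.

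Replicate numbers are shared by the groups, but same-numbered libraries did not deviate together (correlations -0.04, 0.02 and -0.04). With 3 libraries a group, these correlations cannot show whether same-numbered libraries were paired, and the labels do not say. With the replicate block, Hist1h2bk lost its call (adjusted p = 0.0560, edgeR), as did Daxx (0.0538), Ipo4 (0.0615), Cpsf2 (0.0639) and Kmt5a (0.0572). Low counts limit most replication-dependent genes, and reads of near-identical copies are uncertain.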
